A study of Homo sapiens with 18 samples.

Results

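RNA levels of the zinc finger genes of human chromosome 19 were followed in PC9 cells, a human line from a non-small cell lung cancer with a mutated, growth-driving EGFR kinase. The genes were taken from the gene table as the symbols made of ZNF and digits that lie on chromosome 19 and had 200 or more estimated reads summed over the libraries used. The rule kept 219 of 30727 rows. The table lists 239 such chromosome 19 genes, of which 20 stayed under 200 reads and 2 of those had no read. ZNF208, with 196 reads, and ZNF471, with 181, fell just short, while ZNF578, with 225, and ZNF382, with 268, were just inside. All 219 passed the filter on low counts, which left 17641 genes for testing.

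The series compares parental PC9 cells with drug-treated and drug-tolerant ones and adds an inhibitor of histone deacetylases, trichostatin A (TSA). There were 18 libraries of poly(A) RNA, 3 for each of 6 groups. DTP are drug-tolerant persister cells, which outlived 8 days of erlotinib, an inhibitor of EGFR, at 1 µM, and DTP_TSA are such cells given 50 nM TSA for 5 hours. The erlotinib_24h cells had 1 µM erlotinib for 24 hours, the carboplatin_72h cells had 50 µM of the DNA-crosslinking drug carboplatin for 72 hours, and the parental_TSA cells had 50 nM TSA for 5 hours. The reference, parental_DMSO, had the solvent DMSO alone. All groups are the same cell line. ALDH-sorted cells are mentioned in the treatment notes on DTP, but no sample title names them. Nothing in the labels says that the libraries of a group, lettered a, b and c, came from separate cultures, so p-values measure the spread between these samples only. DTP are the cells that lived, so a change within cells cannot be told apart from a change in which cells were left. In such bulk RNA fewer cells that express a gene and less of its RNA per cell cannot be told apart either.

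Zinc finger proteins of the C2H2 kind read DNA with tandem fingers, each held by a zinc ion. Most of those on chromosome 19 also carry a KRAB domain. KRAB binds the scaffold protein TRIM28 (KAP1), which brings in the histone methyltransferase SETDB1 and HP1 proteins to silence the bound site. Many of these proteins bind families of retrotransposons, among them LINE-1 (L1), SVA and endogenous retroviruses, and the genes arose by repeated tandem duplication, so they stand in dense clusters of related copies.

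The 219 genes answered to this description. A pattern for the KRAB box matched the coding sequence of 187 of them and missed 32, and since degenerate boxes escape the pattern the second number is an upper one. The predicted proteins held a median of 12 fingers, with 31 in ZNF91 as the highest number and none matched in ZNF738 (ZNF428 had 1). In the order of the annotation 210 genes fell into 10 clusters, numbered here from the short arm to the end of the long arm, and 9 stood outside. The largest were cluster 10 (ZNF787 to ZNF446, 46 genes), cluster 8 (ZNF175 to ZNF331, 38 genes, all 38 with a KRAB match) and cluster 4 (ZNF101 to ZNF507, 29 genes, ZNF91 and ZNF93 among them). Cluster 9 (ZNF628 to ZNF580) held 7 genes and no KRAB match. Near copies make counting uncertain: a median of 8.66% of a gene's 31-base words also occurred in another gene, and in 12 genes more than 50% did, with ZNF320 at 93.0%, ZNF709 at 90.1% and ZNF177 at 88.4%. Reads of these 12 could have been assigned to a relative, and the doubt is not confined to them. In 183 of the 219 genes the estimated reads were not a whole number in any library. How far relatives account for this was not tested.

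Promoters are shown for 4 genes that the comparisons turn on. ZNF93 encodes a repressor of L1 and ZNF528 a KRAB protein, and both were higher in DTP than in parental_DMSO. ZNF230 was higher and ZNF787 lower after TSA in both backgrounds. The sequences are from RefSeq (GRCh38.p14), 5′ to 3′ along the gene, and run over 250 bases before and 50 bases from the start of the gene. The intervals are chr19:19900696-19900995 on the plus strand for ZNF93, chr19:52397599-52397898 on the plus strand for ZNF528, chr19:44002707-44003006 on the plus strand for ZNF230 and chr19:56121246-56121545 on the minus strand for ZNF787. Their Entrez gene identifiers are 81931 for ZNF93, 84436 for ZNF528, 7773 for ZNF230 and 126208 for ZNF787. Capitals mark 3 words on either strand, of which CCGGAAGT holds the core that ETS factors read. The second, GGGCGGG, is known as a GC box, and the other is the CCAAT box.
ZNF93: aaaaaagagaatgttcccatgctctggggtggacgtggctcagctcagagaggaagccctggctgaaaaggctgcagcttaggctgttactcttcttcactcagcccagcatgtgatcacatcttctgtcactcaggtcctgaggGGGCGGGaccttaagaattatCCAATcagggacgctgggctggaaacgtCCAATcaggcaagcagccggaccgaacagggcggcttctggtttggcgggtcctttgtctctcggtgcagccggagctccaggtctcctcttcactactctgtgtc
ZNF528: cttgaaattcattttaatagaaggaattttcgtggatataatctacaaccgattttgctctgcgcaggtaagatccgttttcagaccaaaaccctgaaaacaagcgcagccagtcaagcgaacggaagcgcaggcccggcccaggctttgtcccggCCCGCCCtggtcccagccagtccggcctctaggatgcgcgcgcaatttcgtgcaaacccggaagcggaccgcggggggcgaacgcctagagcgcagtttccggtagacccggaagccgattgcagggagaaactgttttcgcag
ZNF230: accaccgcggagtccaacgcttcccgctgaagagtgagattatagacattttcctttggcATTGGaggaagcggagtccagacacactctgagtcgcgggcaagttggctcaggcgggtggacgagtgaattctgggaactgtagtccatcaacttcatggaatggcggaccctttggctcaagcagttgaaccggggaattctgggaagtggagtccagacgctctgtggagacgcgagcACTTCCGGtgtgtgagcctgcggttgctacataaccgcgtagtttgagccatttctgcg
ZNF787: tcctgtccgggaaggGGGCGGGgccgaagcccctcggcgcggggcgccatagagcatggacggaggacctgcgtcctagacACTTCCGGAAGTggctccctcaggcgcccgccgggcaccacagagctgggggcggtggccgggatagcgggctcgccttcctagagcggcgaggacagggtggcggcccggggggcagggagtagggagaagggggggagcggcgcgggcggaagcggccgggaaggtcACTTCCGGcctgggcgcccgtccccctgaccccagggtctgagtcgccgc

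RefSeq promoters were matched for 196 of the 219 genes. CCGGAAGT stood in 19.9% of them, against 16.6% of the promoters of ZNF genes on other chromosomes, 6.59% of those of other chromosome 19 genes, and 8.08% of all genes with 200 or more reads. In the promoters printed above it occurs in ZNF230 and, with 3 matches, in ZNF787, where a pair overlaps on both strands and another stands apart. The word was searched on both strands and its matches are letters in a window, not shown sites. GGGCGGG stood in 52.0% and CCAAT in 52.0% of the chromosome 19 ZNF promoters, against 51.4% and 36.3% of all genes with 200 or more reads. The promoters held a median of 20 CG dinucleotides, fewer than the median of 25 over genes with 200 or more reads.

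The libraries held 32139343 to 128293531 reads counted to genes. In library DTP_TSA a the ERCC spike-in RNA, added by cell number, took up 46.0% of the reads and ribosomal RNA repeats 7.09%. In this library 13 of the 219 genes had no read, and over these genes it correlated with its mates at 0.839 and 0.842, where its mates reached 0.995 with each other. Library parental_TSA a correlated with its mates at 0.959 and 0.943, against 0.991 between those, and 4.69% of its gene reads were mitochondrial. Results on TSA are therefore given also without both a libraries. The markers of an epithelial line (EPCAM, KRT8, KRT18, KRT19, CDH1) summed to between 2928 and 7105 CPM (reads scaled to a common library size, with TMM factors) in all libraries, and leukocyte markers to at most 2.17. The 6 fibroblast markers summed to 29.4 to 32.2 CPM in DTP_TSA, 24.3 to 28.3 in DTP, 19.2 to 20.6 in erlotinib_24h, 18.6 to 26.3 in carboplatin_72h, 13.2 to 15.2 in parental_TSA and 4.69 to 4.74 in parental_DMSO. This was COL1A1 almost alone, since the other 5, the defining DCN and LUM among them, reached at most 0.801 CPM in any library. The 4 endothelial markers summed to 35.4 to 37.9 CPM in DTP_TSA, 35.1 to 35.9 in DTP, 113 to 118 in erlotinib_24h, 46.8 to 49.5 in carboplatin_72h, 21.4 to 24.2 in parental_TSA and 17.5 to 18.4 in parental_DMSO. Outside DTP_TSA these sums came mostly from PECAM1 and CDH5. In DTP_TSA CDH5 reached 21.7 CPM, KDR 11.97 and PECAM1 4.58, while KDR reached at most 0.738 CPM in the other groups. The part of these markers in the results below was not tested.

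Zinc finger genes of chromosome 19 were transcribed at low levels. Their mean level over the 6 groups had a median of 7.79 CPM, with quartiles at 3.55 and 14.5 and a range of 0.140 to 149. Per kilobase of transcript, the scale on which genes can be ranked, ZNF146 stood highest at 39.5 CPM per kb; it encodes OZF, a protein made almost wholly of fingers. The other 7 of the 8 genes with the highest CPM came to between 8.91 CPM per kb in ZNF473 and 23.5 CPM per kb in ZNF562, with ZNF358, ZNF317, ZNF274, ZNF468 and ZNF28 between them. ZNF473 (ZFP100) takes part in the processing of histone messenger RNA, and ZNF274 recruits SETDB1 to ZNF genes themselves.

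All 219 genes together summed to 2659.9 ± 104 CPM in DTP_TSA, 2893 ± 36.15 in DTP, 2447 ± 16.02 in erlotinib_24h, 3201 ± 58.1 in carboplatin_72h, 2112 ± 296 in parental_TSA and 2535 ± 54.7 in parental_DMSO (SD, n = 3 each). In this sum the libraries of carboplatin_72h and DTP all lay above those of parental_DMSO, those of erlotinib_24h and parental_TSA all below. The sum gives most weight to abundant genes. The median level over the 219 was 7.17, 6.92 and 7.02 CPM in erlotinib_24h, above the 6.72, 6.57 and 6.41 CPM of parental_DMSO. In parental_TSA this median was 5.24, 6.76 and 7.24 CPM in libraries a, b and c. Counted gene by gene, 83 of the 219 had their highest group mean in DTP_TSA (37.9%, against 20.5% of all genes tested). It lay in carboplatin_72h for 52 (23.7%, against 17.0%), in DTP for 40 (18.3%, against 10.2%) and in erlotinib_24h for 23 (10.5%, against 21.8%). For 3 it lay in parental_TSA (1.37%, against 13.0%) and for 18 in parental_DMSO (8.22%, against 17.6%). DTP was the lowest group for 1 gene only (0.457%, against 6.79% of all genes tested). In contrast parental_DMSO was lowest for 67 (30.6%, against 21.8%) and parental_TSA for 63 (28.8%, against 13.2%). The means of both TSA groups include their a libraries, and this ranking was not repeated without them. Tested directly, 59 of the 219 were higher and 68 lower in DTP_TSA than in DTP, as given below. The libraries of the groups compared did not overlap for 183 of the 219 in DTP against parental_DMSO (background 77.9% of the genes tested), for 183 in erlotinib_24h (83.3%), 169 in carboplatin_72h (75.5%) and 148 in parental_TSA (64.0%) against parental_DMSO, for 150 in DTP_TSA against DTP (65.5%) and for 172 in DTP against erlotinib_24h (78.1%). These shares are near or a little above the background.

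**Figure D1:**
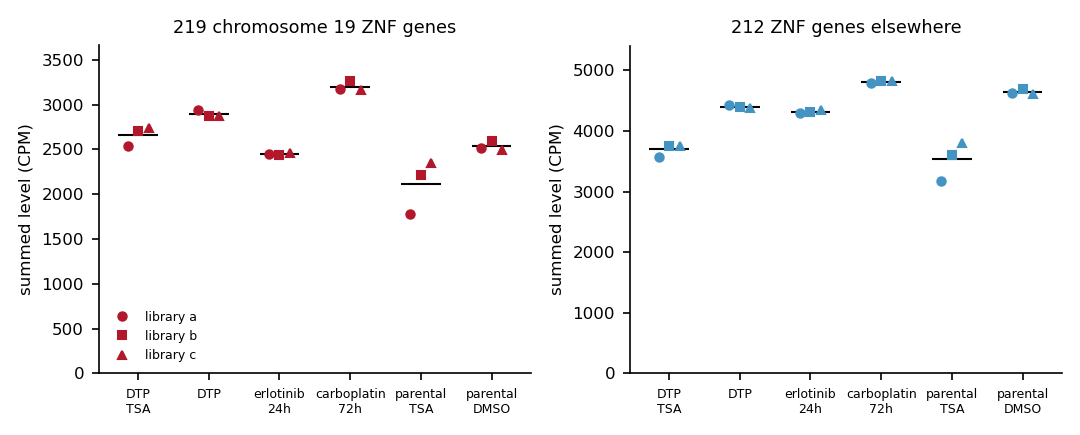
Summed level in CPM (y axis, from 0) of the 219 chromosome 19 ZNF genes (left) and of the 212 ZNF genes on other chromosomes (right) in each library, by group; points are libraries a, b and c and lines are group means. The chromosome 19 sum is highest in carboplatin_72h, at 3201 CPM, and next highest in DTP, at 2893; parental_TSA a lies below its mates in both panels.

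In drug-tolerant cells more of these genes were higher than lower. Against parental_DMSO, 106 of the 219 rose in DTP and 17 fell by edgeR's quasi-likelihood F-test (Benjamini-Hochberg adjusted p under 0.05 over all 17641 genes tested), where the background was 31.0% higher and 27.8% lower. The median log2 fold change of the 219 was 0.44, against 0.06 over all genes tested. Of the ZNF genes on other chromosomes 62 of 212 were higher and 46 lower, with a median of 0.03, while the 900 other genes of chromosome 19 had 356 higher, 202 lower and a median of 0.21. Scaled to the spike-ins instead, in a fit that leaves out DTP_TSA a as all spike-in values here do, 104 were higher and 3 lower (31.6% and 18.3% of all genes). Without both TSA a libraries, which enter the shared estimate of spread, 152 were higher and 26 lower (39.2% and 35.5% of all genes), and without library DTP b the lower count was 11. Among genes whose words are less than 10% shared, 58 of 117 rose and 11 fell.

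**Figure D2:**
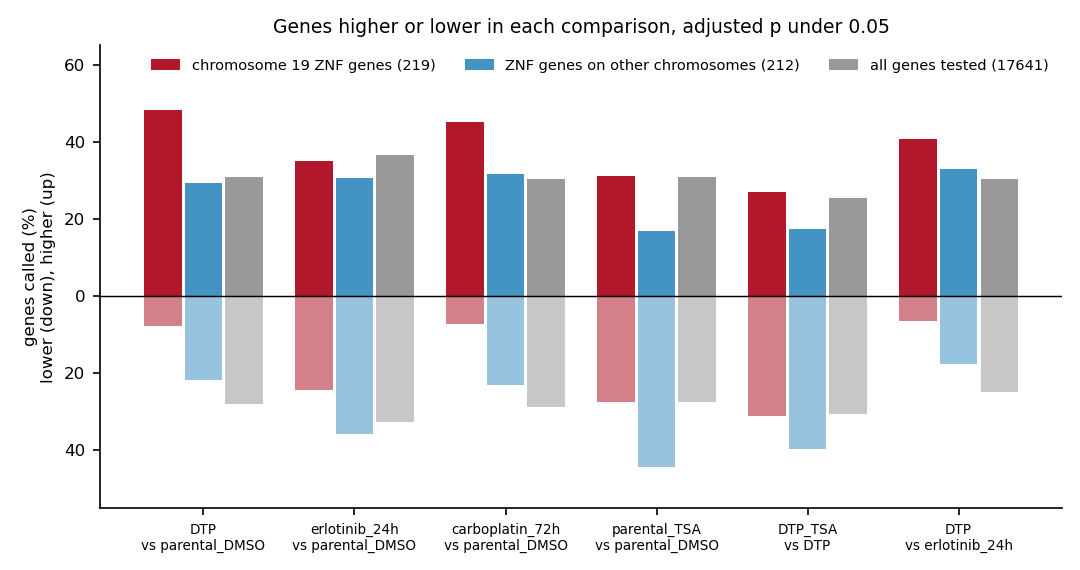
Percentage of genes called higher (bars up) and lower (pale bars down) at an adjusted p under 0.05 in the 6 pairwise comparisons, for the chromosome 19 ZNF genes, the ZNF genes elsewhere and all genes tested. In DTP against parental_DMSO 48.4% of the chromosome 19 genes were higher and 7.76% lower, against 31.0% and 27.8% of all genes.

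ZNF93, which binds and represses L1 subfamilies of primates, led the rise among the genes with known repeat targets. It had 8.20, 8.34 and 8.67 CPM in DTP, against 1.91, 2.50 and 2.44 CPM in parental_DMSO (log2 fold change 1.88 ± 0.15 SE, edgeR adjusted p = 1.04e-08). The groups were far apart, with no DTP library under 8 CPM. ZNF528, a KRAB gene of cluster 8, had 7.22, 6.49 and 6.51 CPM in DTP, against 0.900, 1.09 and 0.854 CPM in parental_DMSO (2.83 ± 0.15, adjusted p = 4.12e-11). Among genes that reached 1 CPM the largest fold belonged to ZNF69, at 0.976, 1.17 and 1.07 CPM in DTP against 0.136, 0.119 and 0.124 CPM in parental_DMSO (3.06 ± 0.86, adjusted p = 0.00558). Its level was near 1 CPM even where it was high, and 30.1% of its words are shared. ZNF44, ZNF844, ZNF415, ZNF836 and ZNF846 completed the 8 largest rises of genes that reached 1 CPM and whose groups did not overlap, with log2 fold changes between 1.80 and 1.99.

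The falls in DTP were smaller. ZNF507, at the end of cluster 4, had 28.4, 28.6 and 28.97 CPM in DTP, against 54.6, 58.4 and 56.3 CPM in parental_DMSO (log2 fold change -0.98 ± 0.15 SE, edgeR adjusted p = 2.9e-05). The most abundant gene of the group, ZNF146, fell as well, to 154, 150 and 151 CPM in DTP, against 219, 231 and 216 CPM in parental_DMSO (-0.55 ± 0.12, adjusted p = 0.000623). The others among the 8 largest falls were ZNF584, ZNF714, ZNF649, ZNF77, ZNF473 and ZNF562, between -0.70 and -0.48. Scaled to the spike-ins, ZNF146, ZNF473, ZNF562, ZNF649 and ZNF714 lost their call (adjusted p between 0.118 and 0.259). The calls of ZNF649 and ZNF714 were lost on leaving out any 1 library of DTP or of parental_DMSO (adjusted p between 0.0532 and 0.0634 for ZNF649 and between 0.058 and 0.0912 for ZNF714). That of ZNF562 was lost without parental_DMSO b, DTP b or DTP c (adjusted p from 0.0533 to 0.059).

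The rise in DTP was unevenly spread along the chromosome. In cluster 3 (ZNF653 to ZNF791) 14 of 20 genes rose and none fell, with a median log2 fold change of 0.98, and in cluster 7 (ZNF575 to ZNF180) 17 of 23 rose and 1 fell, with a median of 0.90. Cluster 4 was mixed, at 12 higher and 4 lower of 29 with a median of 0.32. In cluster 9, without KRAB genes, 1 of 7 rose and none fell. Without both TSA a libraries the counts were 16 and 0 in cluster 3, 20 and 2 in cluster 7, 19 and 7 in cluster 4 and 3 and 0 in cluster 9. Genes of 1 cluster are related in sequence, with a median of 20.4% shared words in cluster 3, 4.77% in cluster 7 and 16.1% in cluster 4, so they are not independent of each other.

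After 24 hours of erlotinib the genes were divided. Against parental_DMSO, 77 of 219 were higher in erlotinib_24h (background 36.6%) and 53 lower (background 32.7%), with a median log2 fold change of 0.18 against 0.11 over all genes tested. The members' own shares were 35.2% and 24.2%, the first near the background and the second below it. Spike-in scaling lowered the median of all genes to -0.25 and that of the 219 to -0.18, with 41 higher and 69 lower (26.0% and 40.8% of all genes). ZNF genes elsewhere had 65 higher and 76 lower of 212. Of the 900 other chromosome 19 genes 450 were higher and 202 lower, with a median of 0.44, above that of the ZNF genes.

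ZNF528 was again among the largest rises, at 4.73, 5.31 and 4.77 CPM in erlotinib_24h against 0.900, 1.09 and 0.854 CPM in parental_DMSO (log2 fold change 2.38 ± 0.15 SE, edgeR adjusted p = 1.62e-10). ZNF358, one of the most abundant, had 75.5, 81.9 and 81.3 CPM in erlotinib_24h, against 27.6, 24.2 and 28.003 CPM in parental_DMSO (1.58 ± 0.16, adjusted p = 1.14e-07). Both genes were well separated between the groups. ZNF446, ZNF836, ZNF345, ZNF554, ZNF846 and ZNF524 rose by log2 fold changes between 1.46 and 2.26.

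Of the 8 largest falls after erlotinib 5 were genes of cluster 4. ZNF90 had 0.247, 0.289 and 0.371 CPM in erlotinib_24h, against 2.85, 3.10 and 2.70 CPM in parental_DMSO (log2 fold change -3.25 ± 0.34 SE, edgeR adjusted p = 1.66e-07). ZNF257 fell by 2.48, ZNF726 by 1.95, ZNF85 by 1.47 and ZNF714 by 1.46 on the log2 scale, all of cluster 4. Outside it ZNF649, which binds L1, had 4.34, 3.87 and 4.21 CPM in erlotinib_24h against 11.9, 12.3 and 12.0 CPM in parental_DMSO (-1.54 ± 0.25, adjusted p = 2.81e-05), and ZNF296 and ZNF121 fell by 1.76 and 1.70. In all, 16 of the 29 genes of cluster 4 fell and 3 rose, with a median of -0.49, whereas in cluster 7 15 of 23 rose and 2 fell, with a median of 0.70. Cluster 4 had 17 lower and 2 higher when scaled to the spike-ins.

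DTP and erlotinib_24h cells were both in erlotinib, for 8 days and 24 hours, and the direct comparison shares no library with the reference. Of the 219 genes, 89 were higher in DTP than in erlotinib_24h (background 30.5%) and 14 lower (background 24.8%), with a median log2 fold change of 0.32 against 0.03 over all genes tested. ZNF genes elsewhere had 70 of 212 higher and 37 lower, and the other genes of chromosome 19 had 206 of 900 higher and 280 lower. The counts became 158 and 4 when scaled to the spike-ins, which moved the median of all genes to 0.48 and that of the 219 to 0.77, and 136 and 23 without both TSA a libraries. The background was 48.0% higher and 11.3% lower in the first of these and 38.7% and 34.0% in the second. In cluster 4, 21 of 29 genes were higher in DTP and none lower, with a median of 0.76 (25 and 0 without both TSA a libraries).

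Of the 8 largest differences upward, 5 were genes of cluster 4. ZNF90 had 2.52, 2.28 and 2.06 CPM in DTP, against 0.247, 0.289 and 0.371 CPM in erlotinib_24h (log2 fold change 2.92 ± 0.33 SE, edgeR adjusted p = 1.1e-06). ZNF85 had 6.41, 6.08 and 6.11 CPM in DTP, against 1.39, 1.27 and 1.41 CPM in erlotinib_24h (2.19 ± 0.13, adjusted p = 2.78e-10). ZNF93 had 8.20, 8.34 and 8.67 CPM in DTP, against 2.08, 1.91 and 2.32 CPM in erlotinib_24h (2.00 ± 0.15, adjusted p = 5.45e-09). In these 3 genes no library of DTP reached down to those of erlotinib_24h. ZNF257 and ZNF253 of the same cluster, with ZNF560, ZNF441 and ZNF296 from elsewhere, were higher by 1.34 to 1.87. Lower in DTP were ZNF524, by a log2 fold change of -1.26, ZNF446, ZNF358, ZNF581, ZNF345, ZNF580, ZNF671 and ZNF224, the last at -0.47. Of these 8, ZNF224, ZNF345, ZNF580 and ZNF671 lost their call when scaled to the spike-ins (adjusted p between 0.233 and 0.943).

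**Figure D3:**
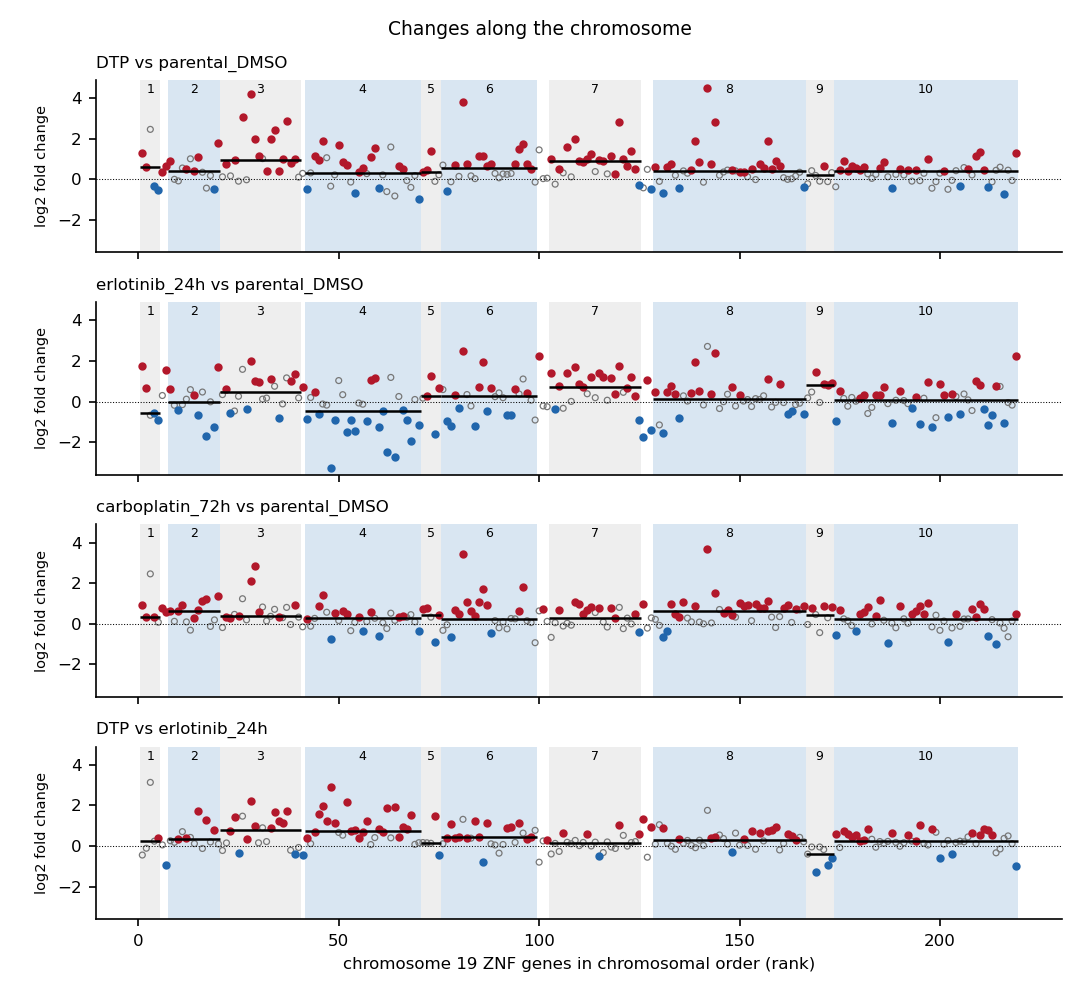
Log2 fold change (y axis) of each of the 219 genes in their order along chromosome 19 (x axis, rank) for 4 comparisons; filled red and blue points passed an adjusted p under 0.05, open points did not, shaded bands are clusters 1 to 10 and black lines their medians. The median of cluster 4 lies below 0 in erlotinib_24h against parental_DMSO, at -0.49, and above 0 in DTP against erlotinib_24h, at 0.76.

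Carboplatin, which damages DNA and does not target EGFR, also left more of the genes higher than lower. Against parental_DMSO, 99 of 219 genes were higher in carboplatin_72h (background 30.3%) and 16 lower (background 28.6%), with a median log2 fold change of 0.35 against 0.06 over all genes tested. ZNF genes elsewhere had 67 of 212 higher and 49 lower, and other chromosome 19 genes 413 of 900 higher and 147 lower with a median of 0.35, as large as that of the ZNF genes. Scaled to the spike-ins the median of all genes moved to 0.71 and that of the 219 to 1.00, with 179 higher and 0 lower (59.3% and 6.87% of all genes). The count of lower genes ranged over 10 without parental_DMSO b, 9 without carboplatin_72h a and 25 without DTP_TSA a. This comparison and those of DTP and erlotinib_24h share the parental_DMSO libraries, so their values stand side by side without a measure of likeness.

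Among genes that reached 1 CPM and whose groups did not overlap, ZNF844 rose most. It had 3.65, 4.25 and 3.83 CPM in carboplatin_72h, against 0.668, 0.503 and 0.469 CPM in parental_DMSO (log2 fold change 2.83 ± 0.21 SE, edgeR adjusted p = 4.19e-09). ZNF93 had 6.10, 5.70 and 6.38 CPM in carboplatin_72h, against 1.91, 2.50 and 2.44 CPM in parental_DMSO (1.41 ± 0.15, adjusted p = 3.91e-07). ZNF121 had 24.2, 26.4 and 24.1 CPM in carboplatin_72h, against 9.95, 11.0 and 10.7 CPM in parental_DMSO (1.24 ± 0.39, adjusted p = 0.0121). This gene was low after erlotinib and high after carboplatin, each without overlap. ZNF345, ZNF528, ZNF846, ZNF547 and ZNF415 rose by 1.14 to 1.70. ZNF331, an imprinted gene, had 49.0, 48.7 and 47.1 CPM in carboplatin_72h, against 26.2, 26.8 and 24.7 CPM in parental_DMSO (log2 fold change 0.90, adjusted p = 4.16e-07), while in DTP it was lower than in parental_DMSO, at 19.5, 19.8 and 19.8 CPM (log2 fold change -0.40, adjusted p = 0.00174).

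The falls after carboplatin all stayed under 1 on the log2 scale. ZNF17 had 3.61, 3.95 and 3.53 CPM in carboplatin_72h, against 7.09, 7.52 and 6.92 CPM in parental_DMSO (log2 fold change -0.96 ± 0.11 SE, edgeR adjusted p = 7.01e-07). ZNF586, ZNF90, ZNF566, ZNF649, ZNF544, ZNF100 and ZNF787 followed, between -0.89 and -0.56. On the spike-in scale ZNF100, ZNF544 and ZNF787 turned to small positive values (0.06, 0.04 and 0.07), and the calls of ZNF17, ZNF566, ZNF586, ZNF649 and ZNF90 were lost (adjusted p between 0.217 and 0.987). The call of ZNF90 was also lost on leaving out any 1 library of carboplatin_72h, DTP or parental_DMSO (adjusted p from 0.0517 to 0.106). That of ZNF649 was lost without parental_DMSO b or c or carboplatin_72h a or c (adjusted p from 0.0542 to 0.0891), and that of ZNF787 without parental_DMSO c or carboplatin_72h b (adjusted p = 0.0505 and 0.0608). By cluster, 21 of 38 genes of cluster 8 rose and 2 fell, with a median of 0.62, and 8 of 13 genes of cluster 2 rose and none fell, with a median of 0.61.

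Set side by side, 43 genes were higher than parental_DMSO in DTP, erlotinib_24h and carboplatin_72h, and 5 (ZNF100, ZNF180, ZNF507, ZNF544 and ZNF649) were lower in all 3; these were listed after their values were seen. The 43 are 19.6% of the 219, against 13.4% of all genes tested, and the 5 are 2.28%, against 13.4%. All 3 comparisons share the parental_DMSO libraries. Scaled to the spike-ins, 0 of the 219 were lower in carboplatin_72h, so the set of 5 did not hold on that scale. The DTP call of ZNF649 was also lost on leaving out any 1 library of DTP or of parental_DMSO. In 12 genes (5.48%, against 6.94% of all genes tested) no pairwise comparison passed the threshold, among them ZNF417 and ZNF611, which bind HERVK and SVA elements. ZNF350 (ZBRK1), a KRAB repressor that binds BRCA1, was one of the 43. It had 19.4, 16.7 and 16.9 CPM in DTP, 17.5, 18.1 and 17.6 CPM in erlotinib_24h and 20.2, 20.3 and 19.8 CPM in carboplatin_72h, against 10.8, 10.7 and 9.54 CPM in parental_DMSO (log2 fold changes of 0.77, 0.78 and 0.96, edgeR adjusted p of at most 1.29e-06). Its 3 treated groups lay close together and clear of the reference.

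**Figure D4:**
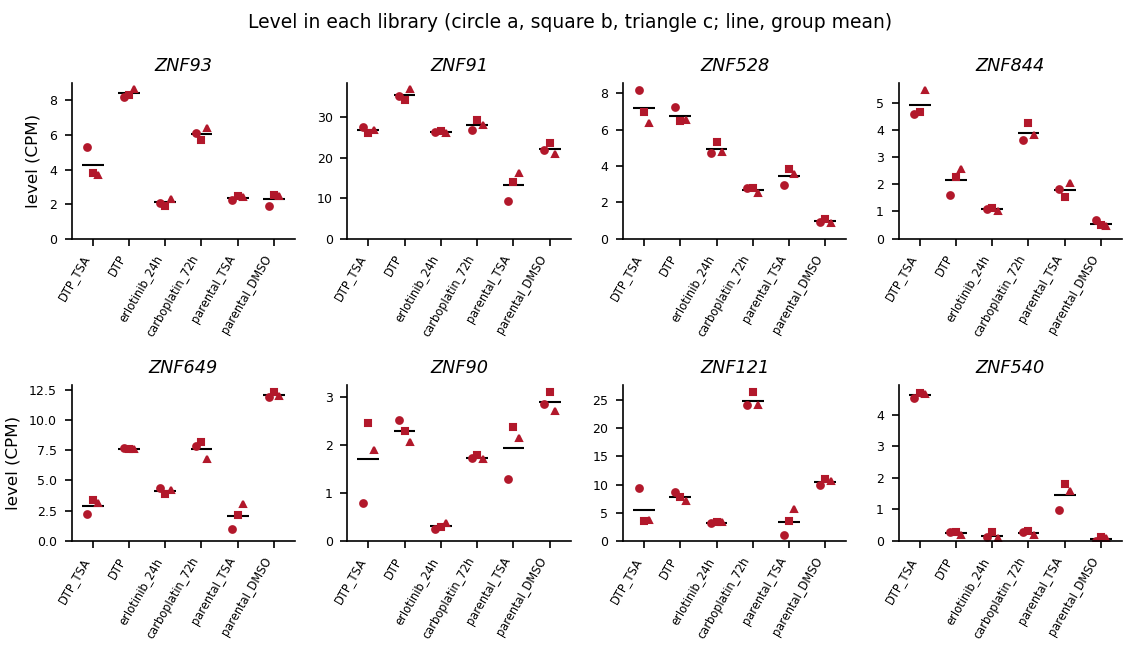
Level in CPM (y axes, from 0) of 8 genes in every library; points are libraries a, b and c, lines are group means and the groups run from DTP_TSA to parental_DMSO. ZNF93 averages 8.40 CPM in DTP and 6.06 CPM in carboplatin_72h against 2.28 CPM in parental_DMSO, and ZNF540 is near 0 in every group without TSA.

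TSA blocks histone deacetylases, which KRAB repression uses among its enzymes. It moved the genes in both directions in either background. In DTP_TSA against DTP, 59 of 219 rose (background 25.6%) and 68 fell (background 30.7%), with a median log2 fold change of -0.02 against -0.08 over all genes tested. Without both a libraries 81 rose and 90 fell (background 33.1% and 37.8%). With spike-in scaling 53 rose and 29 fell (background 24.5% and 14.6%), and the medians turned to 0.09 and, over all genes, 0.10. In parental_TSA against parental_DMSO, 68 rose (background 30.8%) and 60 fell (background 27.4%), with a median of 0.03 against 0.06. Without both a libraries 97 rose and 72 fell (background 36.9% and 33.7%), and with spike-in scaling 54 rose and 43 fell (background 27.8% and 19.9%). With all libraries the members' shares were close to the background, at 26.9% and 31.05% in DTP_TSA and 31.05% and 27.4% in parental_TSA. Without both a libraries the rise in parental_TSA, 97 of 219, was above its background of 36.9%. Of the ZNF genes elsewhere more fell than rose, with 37 higher and 84 lower of 212 in DTP_TSA and 36 higher and 94 lower in parental_TSA. The 900 other genes of chromosome 19 had 237 higher and 298 lower in DTP_TSA (median -0.11) and 437 higher and 166 lower in parental_TSA (median 0.39).

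Of the genes without a KRAB match more fell than rose with TSA. In DTP_TSA against DTP 18 of the 32 were lower and 1 higher, with a median log2 fold change of -0.60, while of the 187 with a match 50 were lower and 58 higher, with a median of 0.06. Over all genes tested 30.7% were lower and 25.6% higher. In parental_TSA against parental_DMSO 14 of the 32 were lower and 6 higher, with a median of -0.40, and of the 187 46 were lower and 62 higher, with a median of 0.07. The background there was 27.4% lower and 30.8% higher. Without both a libraries the 32 had 23 lower and 2 higher in DTP_TSA and 19 lower and 6 higher in parental_TSA. The difference between the 2 kinds was not tested. The 7 genes of cluster 9, which has no KRAB match, are among the 32. In DTP_TSA against DTP 5 of them were lower and none higher, with a median of -1.001. In cluster 1 (ZNF554 to ZNF77), all KRAB genes, 5 of 5 were higher, with a median of 1.44. Both counts held without the a libraries, at 6 lower of 7 and 5 higher of 5. The other clusters made wholly of KRAB genes were mixed. Cluster 8 had 8 higher and 8 lower of 38 (median 0.02), and cluster 5 had 3 higher and 2 lower of 5 (0.54). Of clusters mostly of KRAB genes, cluster 4 had 3 higher and 14 lower of 29 (-0.50). Cluster 3 had 9 higher and 3 lower of 20 (0.42).

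ZNF540 was almost silent until TSA was added. It had 4.52, 4.70 and 4.67 CPM in DTP_TSA, against 0.286, 0.282 and 0.171 CPM in DTP (log2 fold change 4.22 ± 0.49 SE, edgeR adjusted p = 1.41e-06). In parental_TSA it had 0.992, 1.79 and 1.57 CPM, against 0, 0.132 and 0.0827 CPM in parental_DMSO (4.31 ± 0.55, adjusted p = 4.28e-06; 5.10 without parental_DMSO b). It is a KRAB gene of cluster 6. ZNF230, whose promoter is printed above, had 7.82, 8.32 and 8.16 CPM in parental_TSA, against 3.12, 3.03 and 2.73 CPM in parental_DMSO (1.45 ± 0.11, adjusted p = 8.65e-09). ZNF555 had 8.17, 8.29 and 8.13 CPM in DTP_TSA, against 2.61, 2.97 and 2.48 CPM in DTP (1.61 ± 0.13, adjusted p = 2.91e-08). In each of these comparisons every TSA library, the a libraries included, lay above every library without TSA. The further large rises were ZNF709, ZNF77, ZNF433, ZNF221, ZNF563 and ZNF699 in DTP_TSA (1.31 to 2.15) and ZNF404, ZNF528, ZNF177, ZNF844, ZNF599 and ZNF415 in parental_TSA (1.43 to 2.17). The values of ZNF709 and ZNF177 carry the doubt of shared words given above, and the call of ZNF177 was lost on leaving out any 1 library of parental_DMSO (adjusted p between 0.0625 and 0.0788).

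Of the falls, ZNF114 changed most in DTP_TSA, at 2.59, 9.46 and 9.73 CPM against 46.5, 45.6 and 45.1 CPM in DTP (log2 fold change -2.61 ± 0.27 SE, edgeR adjusted p = 4.08e-07). ZNF787 had 7.43, 6.59 and 6.00 CPM in DTP_TSA, against 21.0, 22.5 and 22.6 CPM in DTP (-1.73 ± 0.19, adjusted p = 6.84e-07). It had 16.1, 9.08 and 9.17 CPM in parental_TSA, against 28.1, 26.5 and 30.5 CPM in parental_DMSO (-1.32 ± 0.18, adjusted p = 1.06e-05). In ZNF114 and ZNF787 1 a library lies apart from its mates, in ZNF114 away from DTP and in ZNF787 towards parental_DMSO. ZNF649 had the largest fall in the parental cells, at 1.01, 2.16 and 3.09 CPM in parental_TSA against 11.9, 12.3 and 12.0 CPM in parental_DMSO (-2.51 ± 0.26, adjusted p = 3.03e-07). ZNF784, ZNF579, ZNF582, ZNF653, ZNF562 and ZNF565 also fell in DTP_TSA (-2.18 to -1.43), and ZNF582, ZNF460, ZNF121, ZNF562, ZNF784 and ZNF8 in parental_TSA (-2.28 to -1.28). ZNF565 had no read in DTP_TSA a and lost its call without any 1 DTP library (adjusted p between 0.0592 and 0.0896) or with only DTP_TSA and DTP in the fit (adjusted p = 0.272).

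The 2 TSA comparisons share no library. Across the 219 genes the TSA effect in DTP correlated with that in parental cells at r = 0.69 (Spearman's rho = 0.64), and 72.1% of the genes had the same sign in both, against r = 0.59 and 68.7% over the 17641 genes tested. This is across genes, which are not independent, and r was 0.75 without both a libraries. Both comparisons called 35 genes higher and 38 lower, 46 were called in neither, and 9 were called in opposite directions. These were 16%, 17.4%, 21.0% and 4.11% of the 219, beside 16.5%, 17.9%, 25.2% and 5.18% of all genes tested. Of the 9, ZNF526, ZNF761, ZNF552 and ZNF324 were higher with TSA in DTP and lower with TSA in parental cells, and ZNF358, ZNF575, ZNF226, ZNF83 and ZNF446 the reverse (ZNF761, ZNF575 and ZNF83 are named here after their values were seen). The difference between the effects, tested as an interaction in the same fit, was higher in DTP for 28 genes (background 15.3%) and lower for 41 (background 23.0%). With all libraries both shares were below the background. Without both a libraries 34 of the 219 were higher (background 22.1%) and 75 lower (background 30.9%). There the higher share was below the background and the lower share above it.

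**Figure D5:**
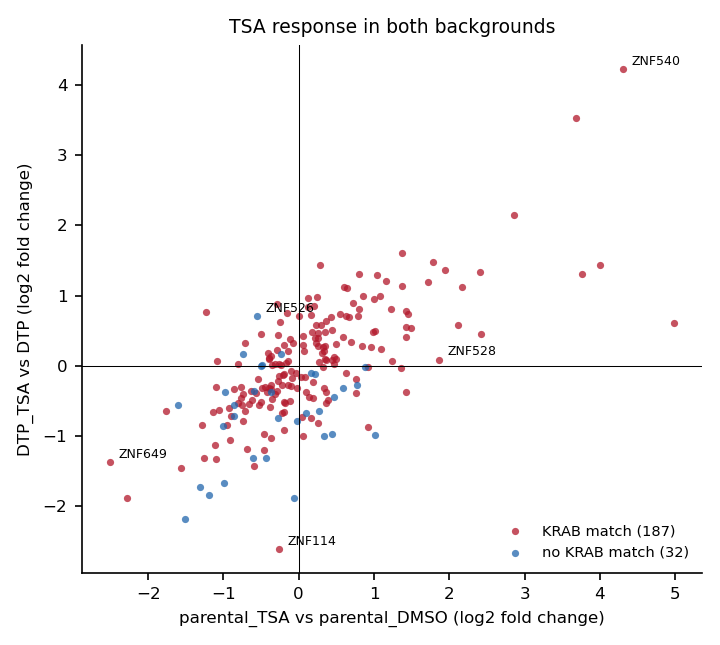
Log2 fold change of DTP_TSA against DTP (y axis) and of parental_TSA against parental_DMSO (x axis) for each of the 219 genes, coloured by the KRAB match. The points spread along the diagonal (r = 0.69), and ZNF540 stands at the upper right. Of the 32 genes without a match 18 were lower in DTP_TSA, against 30.7% of all genes tested.

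For the 8 genes known from the literature to bind retrotransposons the responses differed from gene to gene. ZNF91, the repressor of SVA elements, had 27.6, 26.1 and 26.9 CPM in DTP_TSA, 35.2, 34.2 and 37.1 CPM in DTP, 26.4, 26.6 and 26.2 CPM in erlotinib_24h, 26.7, 29.3 and 28.1 CPM in carboplatin_72h, 9.37, 13.98 and 16.2 CPM in parental_TSA and 21.8, 23.6 and 21.0 CPM in parental_DMSO. It was higher in DTP than in parental_DMSO (log2 fold change 0.68, edgeR adjusted p = 0.000209) and lower with TSA in both DTP (-0.40, adjusted p = 0.0135) and parental cells (-0.74, adjusted p = 0.000108). ZNF93 fell with TSA in DTP, to 5.32, 3.77 and 3.66 CPM against 8.20, 8.34 and 8.67 CPM in DTP (-0.99, adjusted p = 1.76e-05), while in parental cells it did not pass the threshold, at 2.26, 2.46 and 2.40 CPM in parental_TSA against 1.91, 2.50 and 2.44 CPM in parental_DMSO (0.06, adjusted p = 0.763); the difference of -1.05 between these effects had an adjusted p of 0.0008. ZNF649 was lower than parental_DMSO in every treated parental group and in DTP, whereas ZNF93, also a binder of L1, was higher in DTP and carboplatin_72h. Scaled to the spike-ins, ZNF649 lost its call in DTP (-0.57, edgeR adjusted p = 0.161) and in carboplatin_72h (-0.01, adjusted p = 0.987). Both of these calls were also lost on leaving out single libraries, as given above.

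ZNF765, a further L1 binder, had 36.3, 34.9 and 34.2 CPM in DTP_TSA, 28.96, 27.4 and 28.04 CPM in DTP, 20.5, 19.7 and 19.4 CPM in erlotinib_24h, 28.9, 28.7 and 29.2 CPM in carboplatin_72h, 11.1, 18.1 and 20.9 CPM in parental_TSA and 26.97, 28.9 and 26.8 CPM in parental_DMSO. It was lower than parental_DMSO after erlotinib (log2 fold change -0.47, edgeR adjusted p = 0.00739) and in parental_TSA (-0.71, adjusted p = 0.000399). ZNF808, which binds MER11 elements, and ZNF587, which binds HERVK, were higher in carboplatin_72h (log2 fold changes 0.55 and 0.48, adjusted p = 0.0486 and 0.0394). ZNF611 and ZNF417 passed the threshold in none of the pairwise comparisons. Against parental_DMSO, 2 of the 8 genes were higher and 1 lower in DTP (background 31.0% and 27.8% of all genes tested). None were higher and 2 lower in erlotinib_24h (36.6% and 32.7%), and 4 higher and 1 lower in carboplatin_72h (30.3% and 28.6%). In parental_TSA, also against parental_DMSO, none were higher and 4 lower (30.8% and 27.4%). None were higher and 3 lower in DTP_TSA against DTP (25.6% and 30.7%). In DTP against erlotinib_24h 4 were higher and none lower (30.5% and 24.8%).

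Repeat families are given beside the proteins, in CPM of gene reads and without a test of a link. ZNF93 acts on L1PA3 and L1PA4, while the younger L1PA2 and L1HS largely lack the stretch it binds. L1PA4 had 117 ± 9.25 CPM in DTP_TSA, 99.55 ± 3.53 in DTP, 81.1 ± 1.13 in erlotinib_24h, 108 ± 3.67 in carboplatin_72h, 60.9 ± 16.3 in parental_TSA and 78.1 ± 4.07 in parental_DMSO (SD, n = 3 each, here and for the families below). L1PA3 had 199 ± 14.6 CPM in DTP_TSA, 200.2 ± 3.802 in DTP, 167 ± 2.59 in erlotinib_24h, 192 ± 3.82 in carboplatin_72h, 123.2 ± 32.02 in parental_TSA and 166 ± 5.27 in parental_DMSO. In both the means of DTP and carboplatin_72h stood above parental_DMSO, as in ZNF93, and so did that of DTP_TSA. L1PA2, a young L1 subfamily, had 95.2 ± 4.57 CPM in DTP_TSA, 142 ± 2.47 in DTP, 105 ± 1.77 in erlotinib_24h, 103 ± 3.43 in carboplatin_72h, 42.9 ± 14.1 in parental_TSA and 77.1 ± 3.32 in parental_DMSO. The human-specific L1HS had 58.1 ± 0.586 CPM in DTP_TSA, 76.5 ± 2.42 in DTP, 55.7 ± 2.63 in erlotinib_24h, 66.2 ± 2.17 in carboplatin_72h, 29.6 ± 9.56 in parental_TSA and 55.8 ± 1.92 in parental_DMSO. These 2 had their highest group mean in DTP, L1PA4 had it in DTP_TSA, and for L1PA3 DTP and DTP_TSA overlapped.

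SVA elements, bound by ZNF91 and ZNF611, had 111 ± 13.8 CPM in DTP_TSA, 94.0 ± 1.82 in DTP, 124 ± 2.27 in erlotinib_24h, 141 ± 17.1 in carboplatin_72h, 108 ± 11.7 in parental_TSA and 84.5 ± 0.943 in parental_DMSO. ERVK elements, the family of the HERVK targets of ZNF417 and ZNF587, had 238 ± 13.3 CPM in DTP_TSA, 209 ± 4.76 in DTP, 298 ± 7.35 in erlotinib_24h, 331 ± 7.39 in carboplatin_72h, 213 ± 13.6 in parental_TSA and 189 ± 4.60 in parental_DMSO. Both families were highest in carboplatin_72h and lowest in parental_DMSO. Of the MER11 elements, which ZNF808 binds, MER11A had 8.95 ± 3.05 CPM in DTP_TSA, 6.01 ± 0.200 in DTP, 11.8 ± 0.144 in erlotinib_24h, 10.3 ± 0.804 in carboplatin_72h, 7.45 ± 0.934 in parental_TSA and 7.77 ± 0.271 in parental_DMSO. The DTP_TSA mean was raised by library a, at 12.5 CPM. Libraries b and c, at 7.31 and 7.08, lay below every parental_DMSO library (7.82, 7.48 and 8.01). MER11B averaged 10.3 CPM in DTP_TSA, 8.97 in DTP, 11.0 in erlotinib_24h, 13.8 in carboplatin_72h, 14.7 in parental_TSA and 8.40 in parental_DMSO, and MER11C 13.5 CPM in DTP_TSA, 10.1 in DTP, 14.4 in erlotinib_24h, 13.4 in carboplatin_72h, 11.3 in parental_TSA and 8.78 in parental_DMSO. MER11A was thus lower in DTP than in parental_DMSO, where L1PA2, L1PA3, L1PA4 and L1HS were higher.

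The partners of KRAB proteins and other genes of repressed chromatin had more falls than rises against parental_DMSO. The list held TRIM28, SETDB1, ATF7IP, CBX1, CBX3, CBX5, CHD3, CHD4, HDAC1, HDAC2, SMARCAD1, EHMT1, EHMT2, SUV39H1, SUV39H2, DNMT1 and UHRF1. Of these 17 genes, 11 fell and 2 rose in DTP against parental_DMSO, 12 fell and 3 rose in erlotinib_24h, 10 fell and 3 rose in carboplatin_72h, 13 fell and 2 rose in parental_TSA, and 13 fell and 1 rose in DTP_TSA against DTP. Against erlotinib_24h, 9 were higher and 5 lower in DTP. The lower shares of 64.7%, 70.6%, 58.8%, 76.5% and 76.5% in the first 5 stand beside 27.8%, 32.7%, 28.6%, 27.4% and 30.7% of all genes tested. TRIM28, the scaffold that KRAB binds, averaged 191 ± 10.4 CPM in DTP_TSA, 246 ± 6.35 in DTP, 204 ± 3.07 in erlotinib_24h, 281 ± 31.5 in carboplatin_72h, 238 ± 28.7 in parental_TSA and 328 ± 19.4 in parental_DMSO (SD, n = 3 each). It was below parental_DMSO by log2 fold changes of -0.42 in DTP, -0.68 in erlotinib_24h and -0.22 in carboplatin_72h (edgeR adjusted p of 0.000427, 1.55e-06 and 0.0323). SETDB1, the methyltransferase, averaged 11.4 ± 2.39 CPM in DTP_TSA against 33.1 ± 0.691 CPM in DTP, and 17.1 ± 0.880 CPM in parental_TSA against 33.5 ± 0.626 CPM in parental_DMSO (log2 fold changes -1.53 and -0.97, adjusted p = 2.73e-09 and 4.42e-07). DNMT1 and UHRF1, which maintain DNA methylation, fell in all of these comparisons but rose in DTP against erlotinib_24h.

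ZNF274 was measured with little spread between libraries. It had 41.2, 39.0 and 38.8 CPM in DTP_TSA, 59.3, 59.0 and 60.3 CPM in DTP, 31.5, 33.5 and 34.4 CPM in erlotinib_24h, 71.6, 70.7 and 69.5 CPM in carboplatin_72h, 30.5, 33.8 and 34.4 CPM in parental_TSA and 43.2, 43.2 and 42.5 CPM in parental_DMSO. It passed the threshold in all 6 pairwise comparisons, higher than parental_DMSO in DTP (log2 fold change 0.47, edgeR adjusted p = 1.42e-06) and carboplatin_72h (0.72, adjusted p = 9.6e-09), lower in erlotinib_24h (-0.37, adjusted p = 1.36e-05) and parental_TSA (-0.38, adjusted p = 1.71e-05), lower in DTP_TSA than in DTP (-0.59, adjusted p = 1.37e-07) and higher in DTP than in erlotinib_24h (0.84, adjusted p = 1.18e-09). Of its neighbours in the order of group means, erlotinib_24h and parental_TSA overlapped, while carboplatin_72h, DTP and parental_DMSO did not overlap with each other.

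The genes with the widest spread between groups among those reaching 1 CPM were ZNF540, ZNF433, ZNF709, ZNF563, ZNF69, ZNF233, ZNF221 and ZNF90. In the first 7 DTP_TSA was the highest group and parental_DMSO the lowest, and their highest to lowest group means differed by log2 values of 6.01 in ZNF540 down to 3.35 in ZNF221. ZNF90 was highest in parental_DMSO and lowest in erlotinib_24h (3.25). In 3 genes, ZNF382, ZNF556 and ZNF610, parental_DMSO held 3 reads over its libraries, so no fold is given. ZNF382, a KRAB gene, had 1.09, 0.248 and 0.312 CPM in DTP_TSA, 0.155, 0.208 and 0.277 CPM in DTP and 0, 0.0265 and 0.0138 CPM in parental_DMSO.

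Promoter composition was set beside the changes in DTP. Of genes with fewer than 15 CG dinucleotides in the promoter, 25 of 47 were higher and 3 lower in DTP than in parental_DMSO (median log2 fold change 0.58, against 0.45 over the 3256 genes tested with such promoters). With 15 to 24, 43 of 90 were higher and 7 lower (0.41 against -0.01 over 3224 genes), and with 25 or more, 25 of 59 were higher and 5 lower (0.42 against -0.06 over 6663 genes). Differences between the classes were not tested. The share of all genes called was counted neither by class nor for promoters with CCGGAAGT. Over all genes tested 31.0% were higher and 27.8% lower in DTP than in parental_DMSO. In erlotinib_24h against parental_DMSO the members' medians were -0.11, 0.25 and 0.10 in the same order of classes, against 0.60, 0.03 and -0.07 over all genes. Of the 39 genes with CCGGAAGT in the promoter 19 rose in DTP and 2 fell, with a median of 0.44, and of the 157 without it 74 rose and 13 fell, with a median of 0.43.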

How the data were processed

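RNA-seq of poly(A) RNA was available for 18 PC9 libraries in 6 groups of 3. The authors deposited expected counts, the estimated numbers of reads per gene, made with Salmon per the submitters' processing notes; of its settings, strand use and genome build no source used here gives a record. Each table also held 3 columns that match no sample, which were not used. Expected counts were rounded. Symbols were found for 27814 of 30727 Entrez identifiers, and those without one (0.247% of gene reads) stayed in the tests. One model of all libraries was fitted in edgeR 4.0.16 (R 4.3.3) with TMM scaling, filterByExpr and the quasi-likelihood F-test on 12 residual degrees of freedom, and p-values were adjusted by Benjamini-Hochberg over 17641 genes in each comparison, with 0.05 as the threshold. The design, groups and alternatives (DESeq2 1.42.0, its size factors, other filters, spike-in library sizes without DTP_TSA a, a replicate block, fits of the compared groups alone, and leaving out libraries) are taken up at the end.

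The members and lists were chosen with earlier results of these data known. Genes named are, in each comparison, the 8 largest rises and 8 largest falls among called genes with non-overlapping groups and at least 1 CPM in the higher group, the 3 smallest p per direction for the difference of TSA effects, the 8 highest in level, the 8 widest in range, and a list of known repressors. KRAB boxes and fingers were found by patterns in GENCODE coding transcripts, and shared words are 31-base stretches also present in another gene. A cluster holds at least 5 members and ends where more than 10 other coding genes follow. Samples were pooled nowhere. Analysis used Python 3.11.15, pandas 2.3.3, numpy 2.4.6 and matplotlib 3.10.9. Counting error, spread and depth (32139343 to 128293531 gene reads a library) all enter the fitted errors. Protein sequences were not used here.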

Additional observations from a re-analysis of the deposited data

Results flagged for a closer look

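The TSA effect differed between DTP and parental cells by the interaction term of the same edgeR fit (Benjamini-Hochberg adjusted) in 28 genes where it was higher in DTP and in 41 where it was lower. These are 12.8% and 18.7% of the 219, below the 15.3% and 23.0% of all genes tested. Without both TSA a libraries the lower count was 75 of the 219, a share above the background of 30.9%. ZNF526 had mean levels of 21.9 CPM in DTP_TSA against 13.4 CPM in DTP, and 8.74 CPM in parental_TSA against 12.8 CPM in parental_DMSO, a difference of 1.26 ± 0.18 (SE) between the log2 effects (adjusted p = 4.24e-05). ZNF324 differed by 1.17 ± 0.15 (adjusted p = 2.04e-05). ZNF552 differed by 0.95 ± 0.17 (adjusted p = 0.000329). In these 3 genes the effect was positive in DTP and negative in parental cells.

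ZNF528 averaged 7.18 CPM in DTP_TSA against 6.74 CPM in DTP, and 3.43 CPM in parental_TSA against 0.947 CPM in parental_DMSO, so the difference of log2 effects was -1.77 ± 0.19 (adjusted p = 2.9e-06). ZNF226 had log2 effects of -0.39 in DTP and 0.76 in parental cells, a difference of -1.15 ± 0.14 (adjusted p = 8.41e-06). ZNF329 averaged 19.5 CPM in DTP_TSA against 19.9 CPM in DTP, and 14.3 CPM in parental_TSA against 7.78 CPM in parental_DMSO, a difference of -0.90 ± 0.11 (adjusted p = 7.68e-06; -0.75, adjusted p = 0.0725, when scaled to the spike-ins).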

How the results depend on the processing

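All 102 results on genes named for their changes kept their direction and their side of the threshold under DESeq2, its size factors, both other filters, the replicate block and without both TSA a libraries. With the compared groups alone the calls were 28 lower in DTP, 27 lower in carboplatin_72h, and 136 higher and 32 lower in DTP against erlotinib_24h. Without both TSA a libraries they were 152 higher and 26 lower in DTP, 32 lower in carboplatin_72h, 136 higher and 23 lower in DTP against erlotinib_24h, and 75 lower for the difference of TSA effects. Scaled to the spike-ins they were 3 lower in DTP, 41 higher in erlotinib_24h, 179 higher and 0 lower in carboplatin_72h, 29 lower in DTP_TSA, 158 higher and 4 lower in DTP against erlotinib_24h, and 7 higher and 20 lower for the difference; there ZNF100, ZNF544 and ZNF787 changed sign after carboplatin (0.0614, 0.0412 and 0.0686) and 15 named calls were lost. The cause was not tested. With DESeq2 size factors the median of the genes in DTP_TSA was 0.02.

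On leaving out 1 library the calls ranged from 98 to 130 higher and 11 to 20 lower in DTP, from 65 to 94 higher and 49 to 62 lower for erlotinib_24h, from 78 to 111 higher and 9 to 25 lower for carboplatin_72h, from 58 to 80 higher and 53 to 73 lower for parental_TSA, from 48 to 71 higher and 55 to 80 lower for DTP_TSA, from 75 to 112 and 11 to 20 in DTP against erlotinib_24h, and from 19 to 43 (43 without parental_TSA c) and 37 to 57 for the difference.

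The replicate letters were tried as a block. Over all pairs of the 6 groups the deviations of same-lettered libraries from their group means correlated between -0.0532 and 0.103, with 0.0374 for the a libraries of DTP_TSA and parental_TSA, so the libraries were taken to share only a letter. With the replicate block the calls were 105 higher and 17 lower in DTP, 76 higher and 53 lower for erlotinib_24h, 99 higher and 15 lower for carboplatin_72h, 66 higher and 60 lower for parental_TSA, 57 higher and 65 lower for DTP_TSA, 87 and 14 in DTP against erlotinib_24h, and 28 and 42 for the difference.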
